A study of Rattus norvegicus with 9 samples.

Results

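Tsc22d3 and 6 other genes of the glucocorticoid response (Nr3c1, Fkbp5, Per1, Klf9, Sgk1 and Ddit4) were followed in RNA of CD4+ T cells, the helper class of T lymphocytes, from the blood of SD rats aged 8 to 10 weeks. The 7 genes were chosen by name for their place in this response, out of 35972 gene units in the tables. That choice was made with earlier results of these data known. All 7 had an average of 1 TPM or more (a transcript level corrected for length and scaled to the same total in every library) and were among the 14250 units tested. The combination group was CIA rats that received several compounds together over 4 weeks, the model group was CIA rats and the normal group was normal rats, with 3 libraries each. CIA was read as collagen-induced arthritis because the series concerns rheumatoid arthritis. The compounds, their doses and whether each library came from its own rat are not given in the sources used here. The p-values therefore measure the spread between libraries, which may be technical.

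Glucocorticoids, the adrenal hormones that damp inflammation, act through the glucocorticoid receptor, which Nr3c1 encodes. The receptor rests in the cytosol on Hsp90 chaperones and, once it has bound hormone, enters the nucleus, where it switches on some genes and holds down inflammatory ones. Tsc22d3 encodes GILZ, a leucine zipper protein that restrains NF-kappaB and AP-1 and is known in T cells as a target of the receptor and of FOXO transcription factors. Fkbp5 is a cochaperone that lowers the receptor's affinity for hormone, and it is itself induced by the receptor, which makes it a feedback gene. Sgk1 is a kinase, Ddit4 (REDD1) an inhibitor of the growth kinase complex mTORC1, Per1 a repressor of the circadian clock and Klf9 a zinc finger transcription factor.

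Promoter sequences of all 7 genes were found in RefSeq's rat table (build GRCr8), as 12 windows from 250 bases before to 50 bases after an annotated start. The windows of 3 genes are shown, Tsc22d3 and Fkbp5 for what the libraries showed and Klf9 for its motif matches. Tsc22d3 was lower in arthritic rats, Fkbp5 was highest in the combination libraries, and Klf9 shares 2 motifs with Tsc22d3. The Tsc22d3 window lies at chrX:109009985-109010284 on the minus strand, that of Klf9 at chr1:230126396-230126695 on the plus strand and that of Fkbp5 at chr20:6543506-6543805 on the minus strand. Capitals mark matches, on either strand, to the FOXO motif GTAAACA, the cAMP response site TGACG and the TATA box TATAAA.
Tsc22d3: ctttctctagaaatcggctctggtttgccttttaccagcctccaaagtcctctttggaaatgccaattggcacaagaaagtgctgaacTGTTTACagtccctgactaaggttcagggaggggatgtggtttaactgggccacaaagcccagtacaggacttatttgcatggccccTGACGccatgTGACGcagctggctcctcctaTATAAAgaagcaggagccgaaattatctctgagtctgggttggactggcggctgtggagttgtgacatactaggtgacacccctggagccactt
Klf9: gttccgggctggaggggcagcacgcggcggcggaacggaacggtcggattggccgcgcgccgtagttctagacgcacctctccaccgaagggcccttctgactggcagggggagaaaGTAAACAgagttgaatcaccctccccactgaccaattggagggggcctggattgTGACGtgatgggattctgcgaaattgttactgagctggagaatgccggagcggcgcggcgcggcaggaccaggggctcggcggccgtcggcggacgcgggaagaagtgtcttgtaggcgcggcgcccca
Fkbp5: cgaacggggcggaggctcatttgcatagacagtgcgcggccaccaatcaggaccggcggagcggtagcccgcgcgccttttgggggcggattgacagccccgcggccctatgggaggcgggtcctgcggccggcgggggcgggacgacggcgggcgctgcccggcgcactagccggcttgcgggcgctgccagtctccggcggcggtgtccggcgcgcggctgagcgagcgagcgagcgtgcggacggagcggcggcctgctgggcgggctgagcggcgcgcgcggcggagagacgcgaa
In Tsc22d3 the FOXO motif began at position -162 from the start (on the opposite strand), the cAMP response sites at -75 and -65 and the TATA box at -44. In Klf9 the FOXO motif began at -133 and a cAMP response site at -79, and the Fkbp5 window held no match. The windows at the other Tsc22d3 starts in RefSeq, which are not printed, held no match either. The FOXO motif was in 2 of the 12 windows and in 3.78% of 33469 rat promoter windows of this length, the cAMP response site in 2 and in 21.2%, and the TATA box in 3 and in 14.2%. No window of the 7 genes held the full glucocorticoid response element (AGAACA and TGTTCT, 3 bases apart), present in 0.0149% of rat windows, or the single hexamer AGAACA that it contains, present in 20.7%, or the E-box CACGTG of clock factors, present in 6.42%. These matches describe letters near the start sites only.

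The libraries held 7.52 to 10.1 gigabases of aligned sequence, of which Tsc22d3 received 2279 to 9997 kilobases and Sgk1, the scarcest of the 7, 104 to 293 kilobases. T cell markers were high throughout, with Cd3e at 323 to 416 TPM in combination libraries, 228 to 405 in model libraries and 427 to 434 in normal libraries. Cd4 was at 98.1 to 142, 76.5 to 186 and 202 to 235 TPM in the same groups. The T cell marker list (14 of 16) summed to 3759 to 4268 TPM in combination, 3360 to 4386 in model and 4245 to 5100 in normal libraries. Model replicate 2 had the highest sum of its group, 4386 TPM against 3360 and 3687, with the highest value for 10 of the 14 markers and the lowest for 2, Cd3g and Cd28 (223 and 41.6 TPM). Summed monocyte markers (9 of a list of 10 in the tables) were 263 to 517 TPM in combination libraries, against 56.2 to 158 in model and 23.1 to 127 in normal libraries. Platelet markers (9 of 9) summed to 78.3 to 127, 22.1 to 41.4 and 14.1 to 35.8 TPM, and erythroid markers (7 of 9) to 262 to 866, 2408 to 16210 and 60.7 to 1123 TPM. B cell markers (9 of 9) summed to 13.2 to 23.1, 8.03 to 17.5 and 11.0 to 40.8 TPM, and neutrophil markers (10 of 10) to 5.32 to 8.62, 0.931 to 9.07 and 14.8 to 34.8 TPM. Cytotoxic and NK cell markers (11 of 11) summed to 81.2 to 106, 49.9 to 73.9 and 101 to 163 TPM, and class II and dendritic markers (9 of 9) to 158 to 202, 132 to 203 and 44.8 to 285 TPM. Of the monocyte list, Cd163 was at 0 in all model and normal libraries and at most 0.0393 TPM in combination libraries. Others of that list were present in all of them. Lyz2 was at 46.98 to 139.5 TPM in model and 20.49 to 109.2 TPM in normal libraries. Csf1r was at 2.31 to 4.06 and 0.537 to 8.18 TPM in the same groups. The part these cells had in the results was not tested, and in bulk RNA fewer cells of a type and less RNA per cell cannot be told apart.

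The question of the first comparison was how the genes differed between CIA rats and normal rats. Tsc22d3 fell in the model group, and it was the only one of the 7 genes past the test. It had 321, 282 and 282 TPM in model replicates 1, 2 and 3, against 602, 899 and 859 TPM in normal replicates 1, 2 and 3. Every model library was below every normal library, and the model values lay closer to each other than the normal ones did. The log2 fold change, taken on TPM + 1 in this and all later values, was -1.39 ± 0.20 (SE; limma adjusted p = 0.0186), a level 0.380 times that of normal rats with a 95% interval of 0.278 to 0.521. The count of 1 called gene among 7 stands beside 4.09% of all genes called in this comparison (1.72% called lower), and all 3 model libraries lay below all 3 normal ones in 14.1% of all genes. The call ended without normal replicate 2 (log2 fold change -1.29, limma adjusted p = 0.0927), without normal replicate 3 (-1.32, limma adjusted p = 0.0728) and without model replicate 3 (-1.36, limma adjusted p = 0.0516). It also ended when only the reference transcript was counted (-0.94, limma adjusted p = 0.164), for which the split among Tsc22d3 transcripts described further on gives the values.

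Between treated and model rats no change of Tsc22d3 was detectable. Combination replicates 1, 2 and 3 had 277, 233 and 362 TPM, against 321, 282 and 282 TPM in the model group. The combination values lay on both sides of the model values, so the groups overlapped. The log2 fold change was -0.04 ± 0.20 (SE; limma adjusted p = 0.928), and its 95% interval of -0.49 to 0.41 leaves room for a change of up to 1.33-fold upward or to 0.711 times downward. Against normal rats the combination group was lower, at -1.43 ± 0.20 (SE; limma adjusted p = 0.0174), and all its libraries lay below all normal ones, as in 17.8% of all genes. In that comparison 1 of the 7 genes was called, beside 3.64% of all genes (1.61% lower), and between combination and model 0 of 7 were called, beside 4.05% (limma; 1 of 7 had an unadjusted p under 0.05, beside 26% of all genes). The call against normal rats ended without normal replicate 2 (-1.33, limma adjusted p = 0.0774), without combination replicate 1 (-1.41, limma adjusted p = 0.0690), without combination replicate 2 (-1.29, limma adjusted p = 0.0589) and with the reference transcript alone (-1.07, limma adjusted p = 0.141). The comparisons share the normal or the model libraries and are not independent of each other.

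**Figure D1:**
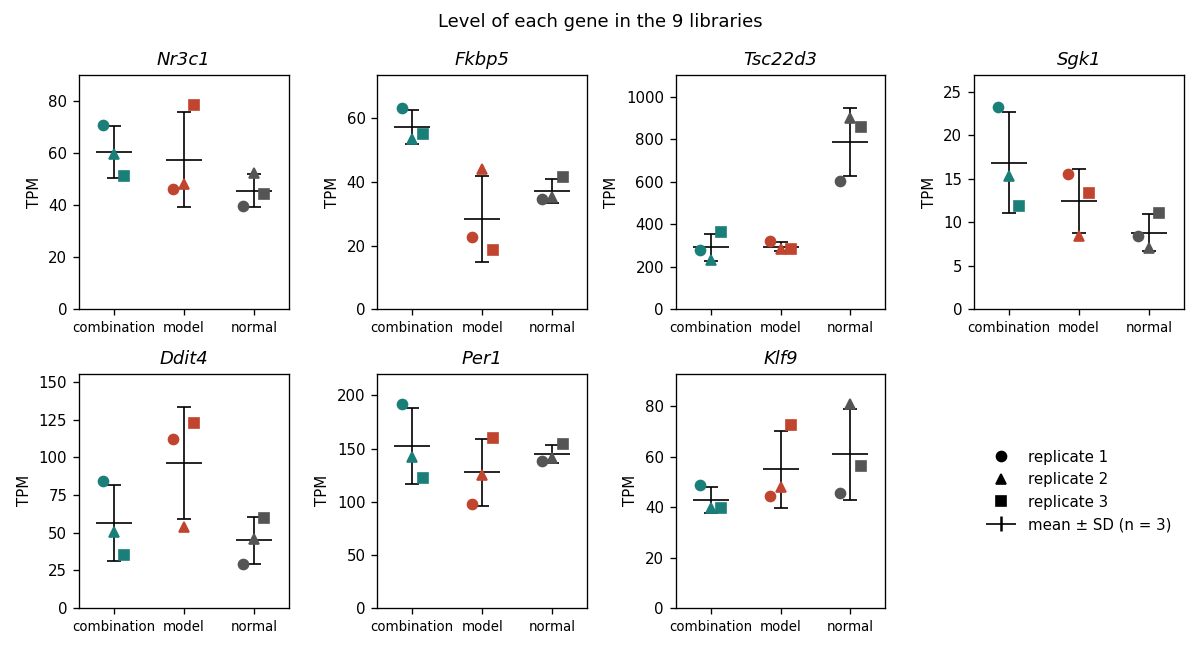
Level in TPM (vertical axis, linear, from 0) of the 7 genes in combination, model and normal libraries, with a symbol per replicate and bars for the mean ± SD of 3 libraries. Tsc22d3 lies at 233 to 362 TPM in the combination and model libraries and at 602 to 899 TPM in the normal ones, while Fkbp5 is highest in the combination libraries.

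**Figure D2:**
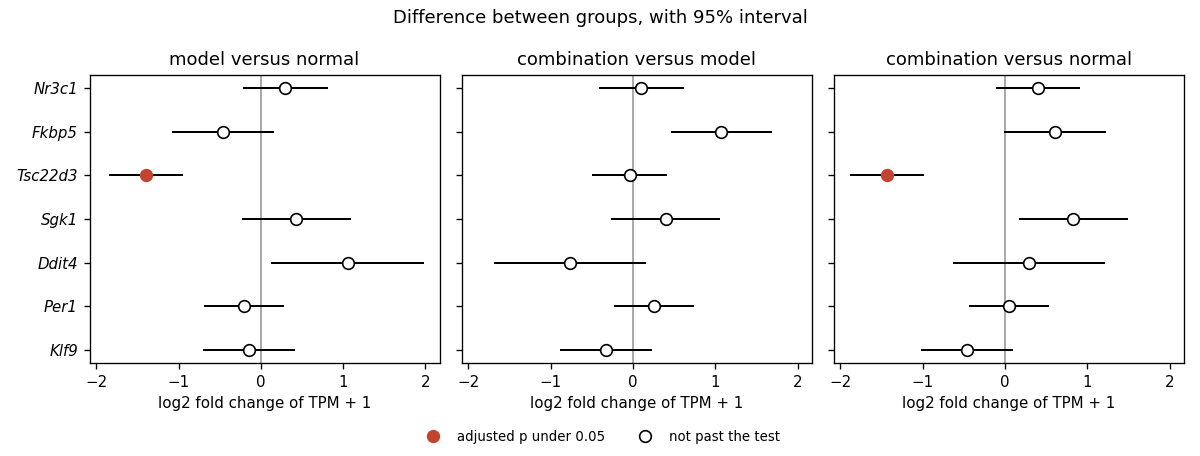
Log2 fold change of TPM + 1 (horizontal axis) of the 7 genes in the 3 comparisons, with 95% intervals from limma; filled points have an adjusted p under 0.05. Tsc22d3 is filled in both comparisons with normal rats, at -1.39 for the model and -1.43 for the combination group, and no gene is filled between combination and model.

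The tables list 3 transcripts of Tsc22d3 on the minus strand of chromosome X (build rn6). The reference transcript, ENSRNOT00000085118, runs over chrX:111884295-111887906 in 3 exons. A spliced transcript assembled by the authors' pipeline shares its first exons and adds an 18-base exon far downstream, reaching chrX:111842541. The other assembled transcript has the same outer ends but keeps both introns, of 686 and 989 bases, within 1 long exon. RefSeq's start nearest to the gene's end, 3625 bases away on GRCr8, matches the reference transcript in length (a span of 3612 bases on rn6), and it is the start whose promoter is printed above. That start is known to give the short GILZ protein, while RefSeq's 2 other starts lie 59021 and 59980 bases from the gene's end.

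**Figure D3:**
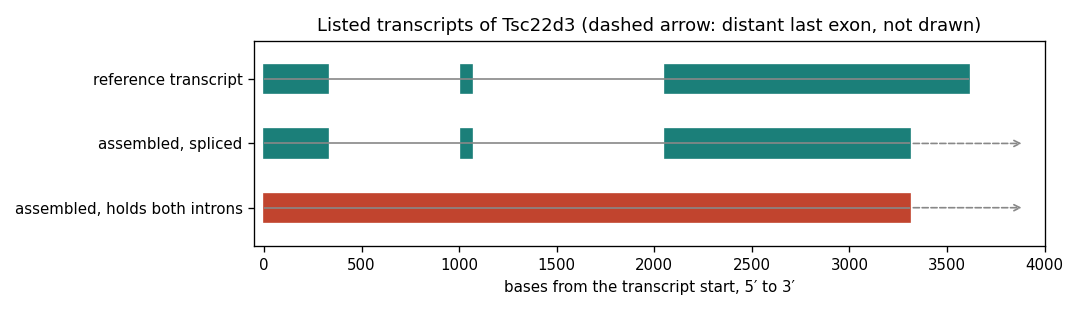
Exons (boxes) and introns (lines) of the 3 listed Tsc22d3 transcripts by distance in bases from their start, drawn to scale. The reference and the spliced assembled transcript share both introns, which the remaining transcript holds within 1 exon; dashed arrows stand for an 18-base exon farther downstream.

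Both the transcript that keeps the introns and the spliced ones fell in the model group. It had 17.9, 8.85 and 10.6 TPM in model replicates 1, 2 and 3, against 81.8, 159 and 83.0 TPM in normal replicates. The 2 spliced transcripts together had 303, 273 and 271 TPM in model replicates and 521, 740 and 776 TPM in normal replicates. Both forms were lower in every model library than in every normal one, as were 14.1% of all genes. The log2 fold change of the intron-keeping transcript was -3.00 ± 0.36 (SE; limma over 36340 transcripts, adjusted p = 0.0313), beside 0.201% of transcripts called. That of the spliced sum, put in place of the gene, was -1.24 (limma adjusted p = 0.0237). The call of the intron-keeping transcript ended without normal replicate 1, 2 or 3 (limma adjusted p = 0.0704, 0.0756 and 0.0755), without model replicate 3 (0.0865) and without combination replicate 1 or 2 (0.0601 and 0.0505).

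As a share of Tsc22d3 TPM, the intron-keeping transcript had values that did not overlap between any of the 3 groups. It made up 9.34%, 7.82% and 8.82% in combination replicates 1, 2 and 3, 5.58%, 3.14% and 3.77% in model replicates, and 13.6%, 17.7% and 9.66% in normal replicates. The share averaged 8.66% ± 0.775 in combination, 4.16% ± 1.26 in model and 13.7% ± 4.03 in normal libraries (SD, n = 3 each). Each comparison gave p = 0.1 in an exact two-sided permutation test, the smallest that 3 against 3 libraries allow. The nearest combination and normal libraries were at 9.34% and 9.66%. By TPM, model lay wholly below normal in 14.1% of all genes. Combination lay wholly above model in 13.7% and wholly below normal in 17.8%. The share of all transcripts with groups apart was not computed. In TPM, combination libraries had 25.9, 18.2 and 31.9, all above the model libraries and all below the normal ones, with log2 fold changes of 0.99 over model (limma adjusted p = 0.235) and -2.01 against normal (limma adjusted p = 0.0888). The spliced sum in combination libraries was 252, 215 and 330 TPM, on both sides of the model values. Combination and model libraries thus overlapped in the spliced sum and the gene total but not in the share. As assembled, the intron-keeping transcript is joined to the distant 18-base exon, with the stretch between them removed. RNA not yet fully spliced and a retained intron cannot be told apart in these tables.

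The split between the 2 spliced transcripts was not stable. The assembled one had 230, 39.4 and 0.618 TPM in normal replicates 1, 2 and 3, and the reference one 290, 701 and 776 TPM in the same libraries. Normal replicate 1 thus carried 38.2% of its Tsc22d3 TPM in the assembled form, which differs from the reference only toward the 3' end. The reference transcript alone had a log2 fold change of -0.94 ± 0.35 in model over normal (SE; limma over transcripts, adjusted p = 0.234) and of -1.07 ± 0.35 in combination over normal (SE; limma adjusted p = 0.214).

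**Figure D4:**
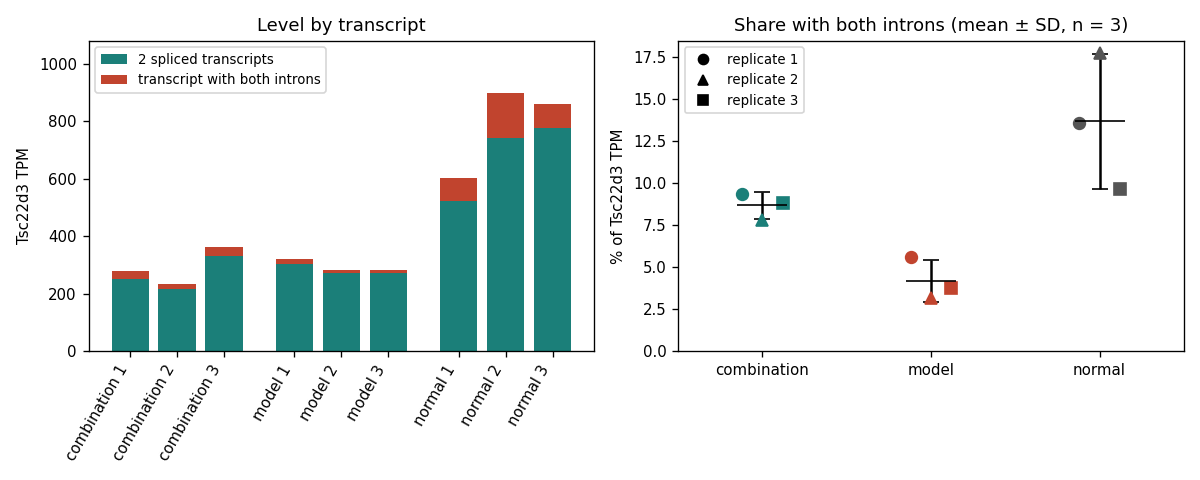
Left, TPM of Tsc22d3 in each library, stacked by spliced transcripts and the transcript with both introns; right, the share of Tsc22d3 TPM in the transcript with both introns, in percent, with mean ± SD of 3 libraries. The share is 7.82% to 9.34% in combination, 3.14% to 5.58% in model and 9.66% to 17.7% in normal libraries.

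Among 7209 named genes averaging at least 5 TPM, 5 followed Tsc22d3 most closely, by the root mean square difference of log2(TPM + 1) over the 9 libraries after each gene's own mean was removed. They were the histone genes Hist1h3b (0.167) and Hist1h4m (0.210), the Cajal body RNA SCARNA2 (0.191), Fam49a (0.318) and Cd69 (0.321), an early activation marker of lymphocytes. The median difference over all ranked genes was 0.802. Hist1h3b averaged 16.5 ± 5.02 TPM in combination, 16.8 ± 4.67 in model and 40.0 ± 5.47 in normal libraries (SD, n = 3 each), and Cd69 averaged 108 ± 38.1, 130.0 ± 16.1 and 211 ± 15.7 TPM. None of the other glucocorticoid genes was near Tsc22d3 in this order. Klf9 came closest at rank 865, followed by Per1 at 2527, Nr3c1 at 5130, Fkbp5 at 5367, Sgk1 at 6471 and Ddit4 at 6704. The likeness describes 9 libraries that share their groups and was not tested.

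Nr3c1, the receptor itself, did not pass the test in any comparison. It had 70.9, 59.8 and 51.0 TPM in combination replicates 1, 2 and 3, 46.2, 48.0 and 78.5 TPM in model replicates, and 39.8, 52.3 and 44.4 TPM in normal replicates. Model replicate 3 was the highest of all 9 libraries, and every pair of groups overlapped. The log2 fold changes were 0.30 in model over normal, 0.10 in combination over model and 0.40 in combination over normal, with limma adjusted p-values of 0.426, 0.812 and 0.300. The 95% interval for model over normal, -0.22 to 0.81, includes both a small fall and a rise. The name Nr3c1 stood at 2 places on chromosome 18 (rn6), and RefSeq lists 1 gene of that name. The first, chr18:31728373-31770832, holds 8 listed transcripts and had 35.2, 30.6 and 28.1 TPM in combination, 23.0, 22.7 and 35.9 TPM in model and 24.3, 24.1 and 23.8 TPM in normal replicates. The other, chr18:32669427-32704129, begins 898595 bases farther on, holds 4 transcripts, and its reference transcript is 1 exon of 1239 bases. With the first place alone, the log2 fold changes were 0.14, 0.22 and 0.36 in the same order of comparisons (limma adjusted p = 0.683, 0.507 and 0.276), and all combination libraries lay above all normal ones, as in 17.7% of all genes.

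Of the receptor and the genes that handle it (11 of 14 tested, Fkbp5 among them), none passed the test between model and normal, and the list's median log2 fold change was 0.06 beside -0.0049 for all genes. Without model replicate 2, 2 rose and 2 fell of 11, beside 18.7% of all genes called. Between combination and model 1 of 11 fell, beside 4.05% of all genes, namely Hsp90ab1, a chaperone that holds the receptor ready for hormone. Hsp90ab1 averaged 497 ± 78.7 TPM in combination and 827 ± 155 TPM in model libraries (SD, n = 3 each), a log2 fold change of -0.73 ± 0.17 (SE; limma adjusted p = 0.0484). That call was lost in all 9 fits that each left out 1 library, with limma adjusted p-values of 0.0526 to 0.133. The other Hsp90 gene of the list, Hsp90aa1, went the other way without passing the test (3.33 ± 1.27, SE, limma adjusted p = 0.141). It averaged 29.8 TPM in combination, 1.52 TPM in model and 24.7 TPM in normal libraries, and it shares its assembled locus with another gene name. Fkbp4, the cochaperone that helps carry the receptor to the nucleus, averaged 23.6, 27.0 and 46.2 TPM in combination, model and normal libraries. Its log2 fold changes against normal were -0.94 in the combination (limma adjusted p = 0.0799) and -0.85 in the model group (limma adjusted p = 0.0985), and no gene of the list passed the test between combination and normal. With model replicate 2 left out, 1 rose and 2 fell of 11 in combination over normal, beside 10.3% of all genes. In combination over model that fit had 1 rise and 1 fall, beside 8.39%.

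Fkbp5 stood highest after the compounds. It had 63.2, 53.2 and 54.9 TPM in combination replicates 1, 2 and 3, 22.6, 43.8 and 18.7 TPM in model replicates, and 34.5, 35.3 and 41.3 TPM in normal replicates. All combination libraries were above all model and all normal libraries, while model replicate 2 lay apart from the other two of its group and above every normal library. The log2 fold change in combination over model was 1.07 ± 0.27 (SE; unadjusted p = 0.00336 and limma adjusted p = 0.0589), which misses the threshold, with a 95% interval of 0.46 to 1.69. Groups stood apart in this direction in 13.7% of all genes. Fkbp5 passed the test without model replicate 2 (1.43, limma adjusted p = 0.0121) and with 3 other scalings of the libraries. These were FPKM (limma adjusted p = 0.0443), median-ratio factors (0.0368) and TPM rescaled after haemoglobin, ribosomal protein and mitochondrial genes were dropped (0.0402). In the same order, these fits called 1195, 1424, 1473 and 1373 of all genes, against 577 in the main fit. Fkbp5 did not pass with only the 2 groups fitted (limma adjusted p = 0.137). Nor did it pass with any other single library left out (limma adjusted p = 0.0831 to 0.145). Against normal rats the log2 fold change of the combination group was 0.61 (limma adjusted p = 0.200), and that of the model group was -0.46 (limma adjusted p = 0.304).

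The receptor is known to induce both Fkbp5 and Tsc22d3, and their ratio was also compared. Per 100 TPM of Tsc22d3 there were 22.8, 22.8 and 15.2 TPM of Fkbp5 in combination replicates 1, 2 and 3, 7.04, 15.6 and 6.64 in model replicates, and 5.73, 3.93 and 4.81 in normal replicates. This ratio within a library does not depend on the scaling between libraries. Its means were 20.3 ± 4.41 in combination, 9.75 ± 5.04 in model and 4.82 ± 0.904 in normal libraries (SD, n = 3 each). The exact two-sided permutation p was 0.1 for combination and for model against normal, the smallest possible, and 0.2 for combination against model. Tsc22d3 is the divisor, so its lower level in the combination and model groups raises this ratio by itself. Fkbp5 averaged 57.1 TPM in combination, 28.4 TPM in model and 37.1 TPM in normal libraries, lower in model than in normal. The ratios against normal are therefore no separate evidence on Fkbp5. The share of other gene pairs with ratios apart was not computed. Monocyte and platelet marker sums were also highest in the 3 combination libraries, and their part in the Fkbp5 values was not tested. Of Fkbp5 TPM, 98.8% lay in assembled transcripts spanning about the length of the RefSeq gene, and the reference transcript alone was under 1 TPM in the mean.

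Sgk1 was the lowest of the 7 genes, with a mean of 12.7 TPM over the 9 libraries, and it passed the test in no comparison. It had 23.2, 15.3 and 11.9 TPM in combination replicates 1, 2 and 3, 15.5, 8.38 and 13.4 TPM in model replicates, and 8.37, 7.02 and 11.1 TPM in normal replicates. The combination libraries were all above the normal ones, by 0.83 ± 0.29 on the log2 scale (SE; limma adjusted p = 0.123), beside the same 17.7% of all genes with groups apart in this direction. Model libraries overlapped with both, with log2 fold changes of 0.43 over normal (limma adjusted p = 0.372) and, for combination over model, 0.40 (limma adjusted p = 0.427).

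Ddit4, the mTORC1 inhibitor, varied widely within groups. It had 84.1, 50.3 and 34.9 TPM in combination replicates 1, 2 and 3, 112, 53.6 and 123 TPM in model replicates, and 29.1, 46.0 and 59.8 TPM in normal replicates. Model replicates 1 and 3 were the highest of all 9 libraries, and model replicate 2 lay among the normal ones. The log2 fold change was 1.05 ± 0.41 in model over normal (SE; limma adjusted p = 0.146) and -0.76 ± 0.41 in combination over model (SE; limma adjusted p = 0.275). Without model replicate 2 the first was 1.43 (limma adjusted p = 0.0394), and Ddit4, Fkbp5 (-0.82, limma adjusted p = 0.0145) and Tsc22d3 were then called, 3 of 7 genes beside 18.7% of all genes. For Fkbp5, Sgk1 and Ddit4 alike, model replicate 2 lay away from model replicates 1 and 3, whereas its Tsc22d3 value, 281.6 TPM, was beside that of replicate 3, 281.7 TPM. The part of the T cell marker sum of this library, 4386 TPM against 3360 and 3687 in model replicates 1 and 3, was not tested.

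Of genes that restrain mTORC1 or share stress control with Ddit4 (13 of 14 tested, Ddit4 itself among them), 2 rose and none fell in model over normal, beside 4.09% of all genes called, with a list median of 0.84. Without model replicate 2, 7 of 13 rose, beside 18.7%, and 3 fell in combination over model, beside 8.39%. The 7 that rose include Ddit4, whose call without that library is given above. Trib3, a pseudokinase of the ATF4 stress response, averaged 60.5 TPM in model against 12.6 TPM in normal libraries (log2 fold change 2.07, limma adjusted p = 0.0183). Chac1, which breaks down glutathione, rose by 2.18 from a low level (limma adjusted p = 0.0314). Between combination and model 1 of 13 fell, beside 4.05% of all genes called, namely Trib3 (-1.62, limma adjusted p = 0.0328), at 17.9 TPM in combination libraries, a call that held in 1 of 9 fits leaving out a library. Against normal, 1 of 13 rose in the combination group (3 without model replicate 2), beside 3.64% of all genes (10.3%), namely Chac1 (1.85, limma adjusted p = 0.0488). In fits that each left out 1 of the 9 libraries, the call of Trib3 in model over normal held in 6, and that of Chac1 in 3 for the model and in 2 for the combination group.

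Per1, a clock repressor that glucocorticoids induce, passed the test in no comparison. It had 192, 142 and 122 TPM in combination replicates 1, 2 and 3, 97.9, 125 and 160 TPM in model replicates, and 139, 141 and 155 TPM in normal replicates. The normal libraries lay close together and inside the ranges of the arthritic groups. Log2 fold changes were -0.21 (95% interval -0.69 to 0.28) in model over normal, 0.25 (-0.23 to 0.74) in combination over model and 0.05 (-0.44 to 0.53) in combination over normal, with limma adjusted p-values of 0.567, 0.494 and 0.915. Of its TPM, 92.2% lay in assembled transcripts.

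Klf9, which glucocorticoids induce in many tissues, was lowest in the combination group without passing the test. It had 48.7, 39.9 and 39.8 TPM in combination replicates 1, 2 and 3, 44.5, 47.9 and 72.4 TPM in model replicates, and 45.5, 80.8 and 56.5 TPM in normal replicates. Every pair of groups overlapped. The log2 fold change was -0.14 (95% interval -0.70 to 0.42) in model over normal and -0.47 (-1.03 to 0.09) in combination over normal (limma adjusted p = 0.753 and 0.271), and in combination over model it was -0.33 (-0.89 to 0.23; limma adjusted p = 0.446).

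Of the clock list (13 of 17 tested, Per1 among them), 2 rose in model over normal and none fell, beside 4.09% of all genes called, with a median of 0.72. Without model replicate 2, 7 rose and 1 fell of 13 in model over normal, beside 18.7% of all genes, and 4 fell in combination over model, beside 8.39%. Per2, a paralog of Per1, averaged 7.88 ± 2.47 TPM in model and 1.34 TPM in normal libraries (log2 fold change 1.88, limma adjusted p = 0.0107), and the call held in 8 of 9 fits that left out 1 library. Bhlhe40, a repressor of the clock that activated T cells also express, averaged 158 TPM in model and 18.4 TPM in normal libraries (2.88, limma adjusted p = 0.0207). In combination over model none of 13 passed (limma; 4.05% of all genes did), with 41.2 TPM of Bhlhe40 in combination libraries (-1.78, limma adjusted p = 0.0547) and 72.4 against 248 TPM of Ciart, another clock repressor (-1.55, limma adjusted p = 0.0593). In combination over normal Per2 (1.21, limma adjusted p = 0.0352) and Per3 (0.94, limma adjusted p = 0.0320) rose, beside 3.64% of all genes called, each in 4 of 9 fits leaving out a library, and the Bhlhe40 call in model over normal held in 6. The time of day of sampling is not given in the sources used here.

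Of genes known to be induced by glucocorticoids (30 of 36 tested, 6 of the 7 among them), 3 rose and 2 fell in model over normal, 5 of 30 beside the 4.09% of all genes, with a list median of 0.17. Those that rose were the zinc-binding metallothioneins Mt2A (log2 fold change 3.00, limma adjusted p = 0.0304) and Mt1 (1.40, limma adjusted p = 0.0458), and Bcl2l11, which encodes the death-promoting protein BIM (1.78, limma adjusted p = 0.0337) and shares its assembled locus with another gene. Those that fell were Tsc22d3 and Txnip, an inhibitor of thioredoxin. Txnip averaged 397 ± 56.9 TPM in combination, 118 ± 34.2 TPM in model and 793 TPM in normal libraries, so that unlike Tsc22d3 it was higher in combination than in model libraries (1.77, limma adjusted p = 0.0236) after a fall of 2.76 in model over normal (limma adjusted p = 0.00347). Txnip was the only one of 30 called between combination and model, beside 4.05% of all genes. In combination over normal Mt2A rose (2.93, limma adjusted p = 0.0386) and Tsc22d3 fell, 2 of 30 beside 3.64% of all genes. In model over normal the Txnip call held in 9 of 9 fits leaving out a library, against 4 for Mt2A, 2 for Mt1 and 3 for Bcl2l11, and the Txnip call in combination over model held in 8. Without model replicate 2, 8 rose and 4 fell of 30 in model over normal, beside 18.7% of all genes, and 2 rose and 3 fell in combination over model, beside 8.39%.

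**Figure D5:**
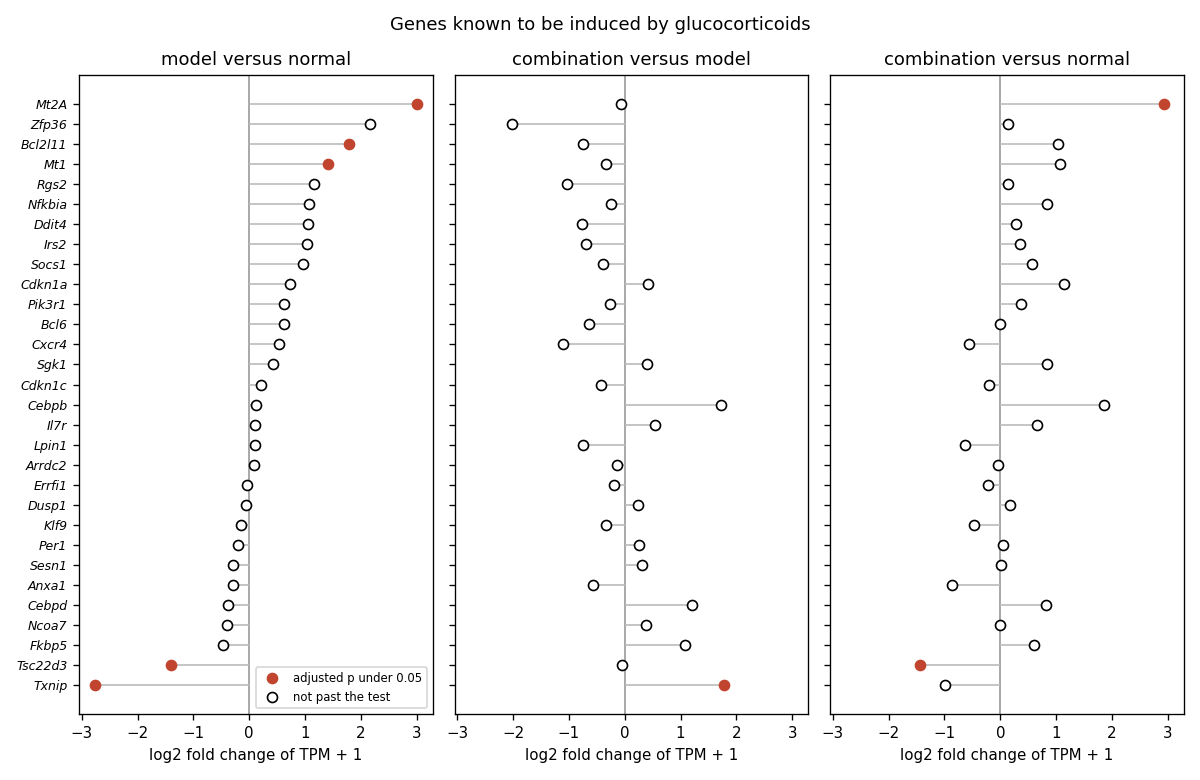
Log2 fold change of TPM + 1 (horizontal axis) of the 30 tested genes known to be induced by glucocorticoids, ordered by model over normal, in 3 panels; filled points have a limma adjusted p under 0.05. Txnip (-2.76) and Tsc22d3 (-1.39) are lowest in model over normal, and Txnip alone is filled in combination over model, at 1.77. Zfp36 and Bcl2l11 share their assembled loci with other gene names.

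Of inflammatory genes that glucocorticoids repress (10 of 18 tested), 2 rose in model over normal, beside 4.09% of all genes called, with a median of 0.52. Lta, the cytokine lymphotoxin alpha, averaged 15.2 ± 2.98 TPM in model and 2.13 TPM in normal libraries (2.37, limma adjusted p = 0.00895), and Icam1, an adhesion molecule, 37.7 and 10.8 TPM (1.75, limma adjusted p = 0.0377). In combination over model 1 of 10 fell, beside 4.05% of all genes, namely Lta at 4.71 ± 1.60 TPM in combination libraries (-1.53, limma adjusted p = 0.0269). In combination over normal 1 of 10 rose, beside 3.64% of all genes, namely Icam1 (2.21, limma adjusted p = 0.0291). The Lta call in model over normal held in 9 of 9 fits that left out 1 library, and the Icam1 call in 3, while the Lta call in combination over model held in 5 and the Icam1 call in combination over normal in 4.

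Relatives of Tsc22d3 and FOXO-linked genes were counted in the same way. Of the Tsc22 domain family, Tsc22d1, Tsc22d2 and Tsc22d4 passed no test. Tsc22d2 had a log2 fold change of 0.87 in model over normal (limma adjusted p = 0.162), and Tsc22d1 averaged 13.6 TPM in combination, 9.12 TPM in model and 9.23 TPM in normal libraries (limma adjusted p = 0.0871 for combination over model). Of paralogs of the 7 genes (6 of 9 tested), 1 rose in model over normal, Per2, and 2 in combination over normal, Per2 and Per3, beside the same shares of all genes as above. The fit without model replicate 2 called 1 higher and 2 lower of 6 in model over normal, beside 18.7% of all genes. All FOXO-linked T cell genes were tested (14 of 14), Tsc22d3, Ddit4 and Sgk1 among them. Txnip and Tsc22d3 fell in model over normal, 2 of 14 beside 4.09% of all genes called, with a list median of 0.17. Without model replicate 2, 3 of 14 rose, Ddit4 among them, and 2 fell, Tsc22d3 among them, beside 18.7%. Klf2, a factor that keeps T cells quiescent and in circulation, averaged 115 ± 25.9 TPM in combination and 322 ± 78.7 TPM in model libraries (-1.47, limma adjusted p = 0.0294), and it was also lower than in normal libraries (-1.49, limma adjusted p = 0.0298), calls that held in 3 and 4 of 9 fits leaving out a library. In combination over model Txnip rose and Klf2 fell, 2 of 14 beside 4.05% of all genes, and in combination over normal Klf2 and Tsc22d3 fell, 2 of 14 beside 3.64%. Foxo1 itself averaged 107 TPM in combination, 155 TPM in model and 78.9 TPM in normal libraries without passing the test. Foxo3 averaged 23.6, 40.9 and 16.0 TPM in the same groups and did not pass either.

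By level over all 9 libraries, Tsc22d3 was the most abundant of the 7 genes at 457 TPM, followed by Per1 at 142, Ddit4 at 65.9, Nr3c1 at 54.6, Klf9 at 52.9, Fkbp5 at 40.8 and Sgk1 at 12.7 TPM. The lowest Tsc22d3 value, 233 TPM, was above the highest Per1 value, 192 TPM. Ddit4, Nr3c1, Klf9 and Fkbp5 overlapped in their ranges, so their order is within the spread of the libraries. The Nr3c1 value sums both places of that name, and the first place alone averaged 27.5 TPM (22.7 to 35.9), below every Klf9 value (39.8 to 80.8 TPM).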

How the data were processed

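Total RNA of CD4+ T cells was sequenced with an NEBNext Ultra kit, per the labels. Bases were called with bcl2fastq and aligned with HISAT2 to rn6, per the submitters' processing notes, and StringTie 1.3.3b estimated a fixed, merged set of 80092 transcripts, per the file headers. The deposited text attributes, other values than counts, were the authors' coverage, FPKM and TPM per transcript. Aligned depth was taken as coverage over FPKM. No counts or read lengths are given, so no counting intervals were made. Strand is not stated, so overlapping genes cannot be told apart.

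TPM was summed by gene name, with assembled transcripts added at loci of 1 name. Genes averaging 1 TPM or more were tested with limma 3.58.1 (R 4.3.3) on log2(TPM + 1), with 3 group means, a trend of variance with level (6 residual, 3.21 prior degrees of freedom) and Benjamini-Hochberg adjustment over all genes (threshold 0.05). Shares were tested by exact permutation in scipy 1.17.1. Named list genes were up to 4 past the threshold with the largest change, or else the 2 of smallest p. Foxo1, Foxo3, Hsp90aa1 and some cell markers were named outside that rule. Genes given fuller values were chosen after their values were seen. The 7 genes, the lists and the tests were chosen with earlier results of these data known. The procedure was tested on simulated data for model over normal. It recovered 43.7% of log2 changes of 1 and 84.4% of log2 changes of 2, with 6.13% of calls false. The simulation changed 200 genes and let each gene vary independently, without shifts shared by a whole library. Its share of false calls is therefore not the error rate of the calls reported here. RefSeq (GRCr8) gave promoters. Alternatives changed the pseudocount, filter, unit, scaling, transcript assignment, fit and libraries; the Nr3c1 place and the spliced Tsc22d3 sum were added after seeing the data.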

Additional observations from a re-analysis of the deposited data

How the results depend on the processing

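Tsc22d3 stayed lower than in normal rats in every alternative tried. Its log2 fold change in model over normal was -1.58 to -1.29 when 1 library was left out and -0.94 (limma adjusted p = 0.164) with reference transcripts alone. In combination over normal it was -1.62 to -1.29 when 1 library was left out, -1.07 (limma adjusted p = 0.141) with reference transcripts and -1.43 (limma adjusted p = 0.0572) with the replicate number as a block. The numbers were not taken to pair libraries, since residuals of same-numbered libraries correlated at -0.12 to 0.066 over 9 pairs and 2 of 9 libraries correlated best with their own number. In combination over model its small value changed sign, to 0.054 after haemoglobin, ribosomal protein and mitochondrial genes were dropped, and ranged from -0.21 to 0.11 when 1 library was left out. The intron-keeping transcript in model over normal was -3.28 to -2.69 when 1 library was left out and -3.00 with the block (limma adjusted p = 0.146). The reference transcript in combination over model was -0.28 to 0.0053 when 1 library was left out.

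The count of the 7 genes called in model over normal was 0 with reference transcripts and 0 to 3 when 1 library was left out. In combination over model it was 1, Fkbp5, with FPKM, median-ratio scaling or those genes dropped, and 0 to 1 when 1 library was left out. Those scalings called 1424, 1473 and 1373 of all genes, against 577 in the main fit. In combination over normal it was 0 with reference transcripts and with the replicate block, 2 when only the 2 groups were fitted, and 0 to 2 when 1 library was left out. The fit of only the 2 groups called 1233 of all 14250 genes in that comparison, against 518 in the main fit. Uncalled values that changed sign were Per1 with reference transcripts (0.023, -0.21 and -0.19 in the 3 comparisons, model over normal first and combination over normal last). When 1 library was left out, Klf9 in model over normal was -0.35 to 0.080, Nr3c1 in combination over model was -0.031 to 0.35, and in combination over normal Ddit4 was -0.040 to 0.58 and Per1 -0.13 to 0.19. Fkbp5 had no value with reference transcripts, and the cause of these changes was not tested.

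The count of all genes called moved more than the values did. In model over normal it was 583, against 2665 without model replicate 2, 18 without normal replicate 2, 87 with the block and 71 with only the 2 groups. In combination over model it was 577, against 1473 with median-ratio scaling, 28 with only the 2 groups and 12 with the block, and in combination over normal it was 518, against 1465 without model replicate 2, 1408 with median-ratio scaling and 21 with the block. With haemoglobin, ribosomal protein and mitochondrial genes dropped 65.3% of calls in combination over model were higher, against 51.3%. With 3 libraries a group and no read counts, precision is that of the intervals given, and Sgk1 rests on the least aligned sequence.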
